A study of Homo sapiens with 6 samples.

Results

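The S100 genes encode small calcium-binding proteins, and 9 of them, S100A2, S100A4, S100A6, S100A10, S100A11, S100A13, S100A14, S100A16 and S100P, were followed here when VprBP was depleted in PC3 cells. The members were taken by gene name from a fixed list, and all 9 were found among the 12227 genes of the deposited table. PC3 is an established human prostate cancer cell line, and every library came from it, grown in DMEM with serum and antibiotics. The compared groups were 3 libraries of cells with control short hairpin RNA (shRNA), labelled WT, and 3 libraries of cells with shRNA against VprBP, labelled VprBP knockdown. VprBP is the protein made from DCAF1. Each group is a set of samples numbered 1 to 3 within 1 cell line. From the labels it cannot be read if the numbers mean hairpins, cultures or repeat libraries. The p-values therefore reflect sample-to-sample spread alone, and that spread may be technical.

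S100 proteins form dimers, and most of them change shape when calcium enters their EF-hands, the helix-loop-helix folds that hold the ion. The altered dimer then grips a partner such as an annexin, a myosin heavy chain or a receptor. Most S100 genes sit side by side in a cluster on the long arm of chromosome 1, whereas S100P lies alone on chromosome 4. In epithelia they are known for roles in membrane repair, cell movement and inflammation, and several are used as tumour markers.

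The values are a scaled signal per gene, in the units of the deposited table, which are proportional to reads. Summed over the listed genes, control libraries held 22981870 to 32293136 estimated reads and knockdown libraries 23029452 to 39633837. Behind single values of the 9 S100 genes stood 398 to 24415 estimated reads. DCAF1 itself gave 79.4, 78.5 and 78.7 in the control libraries and 38.5, 41.1 and 40.2 in the knockdown libraries, with no overlap. The knockdown mean was 50.6% of the control mean, a log2 fold change of -0.97 (SE 0.05, limma adjusted p = 3.56e-11). RBM15B, which overlaps DCAF1 on the opposite strand, was not called, at 133 ± 5.15 and 131 ± 4.50 (SD, n = 3 each, limma adjusted p = 0.796). All 6 epithelial markers examined (KRT8, KRT18, KRT19, EPCAM, CDH1 and CLDN4) were listed, with summed signals of 2704 to 2765 in control and 3076 to 3145 in knockdown libraries. Of these 6, 3 rose, 2 fell and 1 was not called. Of the prostate luminal markers, HOXB13 fell from 58.1 ± 2.25 to 47.3 ± 0.389 and TMPRSS2 from 31.2 ± 1.31 to 19.5 ± 1.22 (SD, n = 3 each), and KLK2, KLK3, FOLH1 and ACPP were not analysed here. Of 7 fibroblast markers COL1A1 was listed, and it was not called (24.4 ± 0.900 and 24.7 ± 4.05, SD, n = 3 each). Of 5 endothelial markers PECAM1 was listed, and it fell from 54.2 ± 1.14 to 23.3 ± 0.695 (SD, n = 3 each). Every library came from the PC3 line rather than from a tissue, and a part of other cell types in the results below was not tested. Knockdown replicate 3 lay farthest from its group over all genes: its chi-square statistics against the other knockdown libraries, scaled by their degrees of freedom, were 6.26 and 6.69, and the 4 other pairs within a group had 3.39 to 3.85. Without it, all 9 S100 genes kept their direction and their call.

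The stretches just before the transcription start are shown for the 5 S100 genes that fell and for the 2 that rose most, so that their core promoters can be read beside the values. This set was chosen after the values were seen. Each is the 100 bases before the RefSeq start nearest to the gene's end in the deposited table (GRCh38.p14), written 5′ to 3′ on the gene's strand. Capitals mark TATAA, the core of a TATA box, where it lies 16 to 40 bases before the start. They also mark GGGCGG, the core of a GC box, on either strand, and TGANTCA, the core of an AP-1 site.
S100P: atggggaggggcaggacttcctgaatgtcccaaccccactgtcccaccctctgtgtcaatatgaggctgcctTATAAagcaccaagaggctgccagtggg
S100A4: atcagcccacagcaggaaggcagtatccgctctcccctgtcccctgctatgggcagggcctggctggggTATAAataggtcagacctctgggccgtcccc
S100A14: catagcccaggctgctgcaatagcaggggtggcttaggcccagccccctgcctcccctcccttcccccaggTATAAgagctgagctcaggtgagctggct
S100A6: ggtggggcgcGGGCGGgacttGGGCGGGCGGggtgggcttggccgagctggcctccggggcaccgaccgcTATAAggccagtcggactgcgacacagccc
S100A2: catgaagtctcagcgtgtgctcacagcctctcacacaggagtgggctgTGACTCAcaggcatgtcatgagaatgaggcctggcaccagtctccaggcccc
S100A10: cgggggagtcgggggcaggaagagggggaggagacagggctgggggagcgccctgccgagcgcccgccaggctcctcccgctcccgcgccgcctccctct
S100A11: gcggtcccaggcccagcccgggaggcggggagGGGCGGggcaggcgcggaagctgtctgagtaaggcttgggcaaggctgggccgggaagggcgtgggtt

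These stretches lie at chr4:6693778-6693877 (plus strand) for S100P and, on the minus strand of chromosome 1, at chr1:153545807-153545906 for S100A4 and chr1:153616326-153616425 for S100A14. On the same strand they lie at chr1:153535992-153536091 for S100A6, chr1:153565845-153565944 for S100A2, chr1:151993860-151993959 for S100A10 and chr1:152037005-152037104 for S100A11. Of the 5 S100 genes that fell, 4 had TATAA at the usual distance, and S100A2 did not. None of the 4 that rose had it at the start used here. S100A13 has 3 starts in the table, and one of the other two carries TATAA 29 bases before it. S100A2 has another start in the table, also without TATAA. The start used lies 10903 bases from the deposited gene end for S100A11, 4330 for S100A4, 3001 for S100A13 and 2046 for S100A2. Which start is in use was not tested.

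Among 9183 listed protein-coding genes with a RefSeq start, out of 11219, 2.68% had TATAA in this position, as did 3.91% of the 35097 starts in the whole table. Of the 246 listed genes with it, 49.2% were called higher and 33.3% lower. Of the 8937 without it, 34.1% were higher and 27.9% lower. GGGCGG, whose matches may overlap each other, searched on both strands of the 300 bases from 250 before to 50 after the start, was present for S100A6, S100A10, S100A11 and S100A13. It was present in 72.4% of the listed protein-coding genes and 44.9% of all starts. Starts not used here gave S100A16 a match and S100A13 none. TGANTCA, read the same way, was present only for S100A2 among the 9, against 4.12% and 7.71%. The other S100A2 start lacked it. The core of an interferon-stimulated response element, GAAA followed after any 2 bases by GAAA, was found in none of the 9, against 2.65% and 3.58%. These are matches of letters and were not tested as sites.

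S100 transcripts moved in both directions after VprBP depletion. S100A2, S100P, S100A4, S100A14 and S100A6 fell, and S100A11, S100A10, S100A13 and S100A16 rose. All 9 were called at a limma adjusted p under 0.05, where 60.9% of all 12227 genes were called. The 5 lower members compare with 27.8% of all genes called lower, and the 4 higher members with 33% called higher. Control and knockdown libraries did not overlap for any of the 9, as for 64.8% of all genes. Calls with at least a 1.5-fold difference were made for 3 members, S100A2, S100P and S100A4, where 11.6% of all genes had such calls. The median log2 fold change was -0.52 over the 9 and 0.02 over all genes, and the median absolute value was 0.53 against 0.21. In bulk RNA, fewer cells that make a transcript and less of it per cell cannot be told apart.

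**Figure D1:**
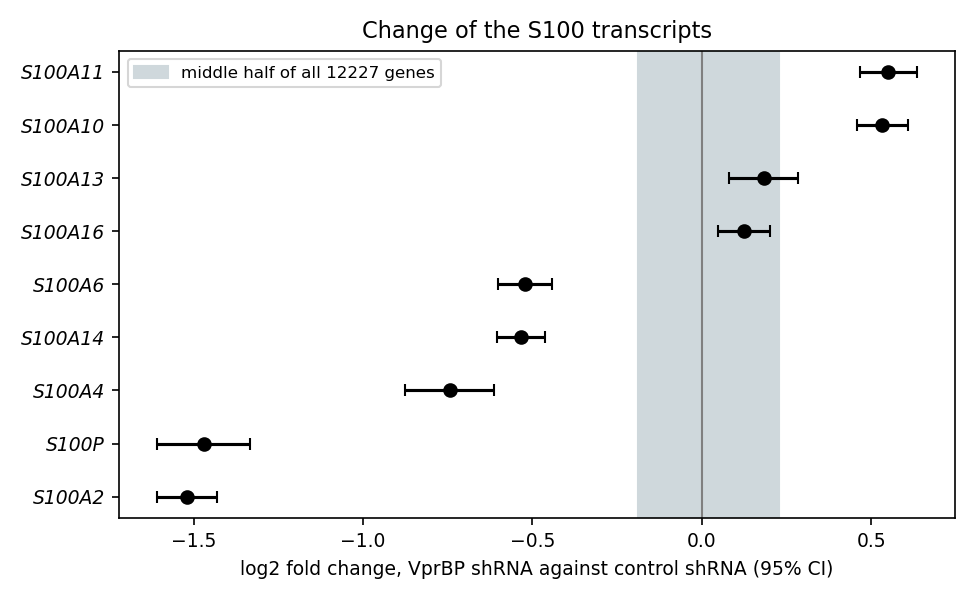
Log2 fold change of each S100 gene (x axis, VprBP shRNA against control shRNA, points) with its 95% limma confidence interval (bars), and the range from the first to the third quartile of all 12227 genes shaded. S100A2 and S100P lie near -1.5, S100A4, S100A14 and S100A6 lie between -0.74 and -0.52, and S100A10 and S100A11 lie at 0.53 and 0.55, all outside the shaded range, while S100A13 and S100A16 lie within it.

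The largest changes were falls of S100A2 and S100P. S100A2, which binds p53 and is typical of basal epithelial cells, had values of 457, 463 and 486 in the control libraries. It had 173, 154 and 162 in the knockdown libraries, so every knockdown library was far below every control library. Means were 469 ± 14.96 and 163 ± 9.42 (SD, n = 3 each), a 2.87-fold fall. The log2 fold change of S100A2 was -1.52 (SE 0.04, limma adjusted p = 1.93e-14), and its absolute size ranked 183 among the 12227 genes. S100A2 (ENSG00000196754.13) spans 153561108 to 153567890 of chromosome 1 on the minus strand (hg38, as for the other genes below).

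S100P, a secreted and intracellular member that activates the membrane linker ezrin and signals through the receptor RAGE, had 50.6, 53.1 and 54.1 in control libraries. In the knockdown libraries it had 18.4, 20.2 and 17.5, and 35.5% of the control level remained. Every knockdown library was again far below every control library. Means were 52.6 ± 1.80 and 18.7 ± 1.40 (SD, n = 3 each), with a log2 fold change of -1.47 (SE 0.06, limma adjusted p = 1.08e-11). S100P (ENSG00000163993.7) spans 6693878 to 6697170 of chromosome 4 on the plus strand. Only S100A2 and S100P among the 9 kept a call in a test against a fold of 1.5, where 651 of all 12227 genes were called.

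S100A4, which binds the tail of non-muscle myosin IIA and is associated with cell migration, had 36.1, 37.0 and 39.8 in control libraries. It had 23.0, 22.3 and 21.5 in knockdown libraries, and the groups did not overlap. This was a 1.69-fold fall, or -0.74 on the log2 scale (SE 0.06, limma adjusted p = 3.37e-08). In the test against a fold of 1.5 its limma adjusted p was 0.173. S100A4 (ENSG00000196154.12, chromosome 1, 153543613 to 153550136) overlaps S100A3 on the same strand, so that reads of shared exons cannot be assigned with certainty, and S100A3 was not analysed here.

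S100A6, also called calcyclin, has the ubiquitin-ligase adaptor CACYBP as a partner. Its values were 603, 583 and 649 in control and 436, 418 and 423 in knockdown libraries, with no overlap. Means were 612 ± 33.9 and 426 ± 9.26 (SD, n = 3 each), which is -0.52 on the log2 scale (SE 0.04, limma adjusted p = 5.92e-09). S100A6 (ENSG00000197956.10) spans 153534599 to 153536244 of chromosome 1, and an unnamed antisense RNA gene overlaps it.

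S100A14 and S100A16 are widely expressed in epithelia, and only 1109 bases separate them on the minus strand of chromosome 1. They moved in opposite directions. S100A14 had 750, 740 and 794 in control libraries and 536, 513 and 526 in knockdown libraries, with a log2 fold change of -0.53 (SE 0.03, limma adjusted p = 9.89e-10). S100A16 had 422, 399 and 410 in control libraries and 469, 434 and 440 in knockdown libraries. The S100A16 groups lay close together, from 422 as the highest control value to 434 as the lowest knockdown value. It differed by 0.12 on the log2 scale (SE 0.04, limma adjusted p = 0.00683), with a 95% interval of 0.05 to 0.20, against -0.61 to -0.46 for S100A14. Without knockdown replicate 1 the S100A16 call was lost, with a log2 fold change of 0.09 and a limma adjusted p of 0.0503. With one prior variance for all genes it was also lost, with a limma adjusted p of 0.0632. S100A14 (ENSG00000189334.9) spans 153614255 to 153616986, and S100A16 (ENSG00000188643.11) spans 153606886 to 153613145.

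The annexin-binding members S100A10 and S100A11 rose by similar amounts. S100A10 has lost calcium binding and forms a tetramer with annexin A2 at membranes, where it also serves as a plasminogen receptor. It had 214, 223 and 214 in control libraries and 326, 310 and 307 in knockdown libraries, with no overlap. The rise of S100A10 was 1.45-fold, with a log2 fold change of 0.53 (SE 0.04, limma adjusted p = 2.17e-09). S100A11, a partner of annexin A1 in membrane repair, had 238, 257 and 250 in control and 376, 345 and 370 in knockdown libraries. Its rise was 1.47-fold, with a log2 fold change of 0.55 (SE 0.04, limma adjusted p = 5.25e-09). The 95% intervals were 0.46 to 0.61 for S100A10 and 0.47 to 0.63 for S100A11. S100A10 (ENSG00000197747.9) spans 151982915 to 151993859 and S100A11 (ENSG00000163191.6) spans 152032506 to 152047907 of chromosome 1. The gene name table holds 8 named S100A11 pseudogenes, and an antisense RNA gene overlaps it, so the counting may have split some S100A11 reads.

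S100A13, which helps FGF1 and interleukin 1 alpha leave the cell by a route outside the secretory pathway, rose slightly. It had 50.8, 51.0 and 53.1 in control libraries and 60.0, 56.3 and 59.6 in knockdown libraries. The groups did not overlap, and S100A13 differed by 0.18 on the log2 scale (SE 0.05, limma adjusted p = 0.00399). S100A13 (ENSG00000189171.15, chromosome 1, 153618787 to 153631360) overlaps S100A1 on the opposite strand. No source used here says if the counting kept strand, so reads from the stretch where S100A13 and S100A1 overlap cannot be assigned with certainty. Another RNA gene overlaps S100A13 on the same strand.

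**Figure D2:**
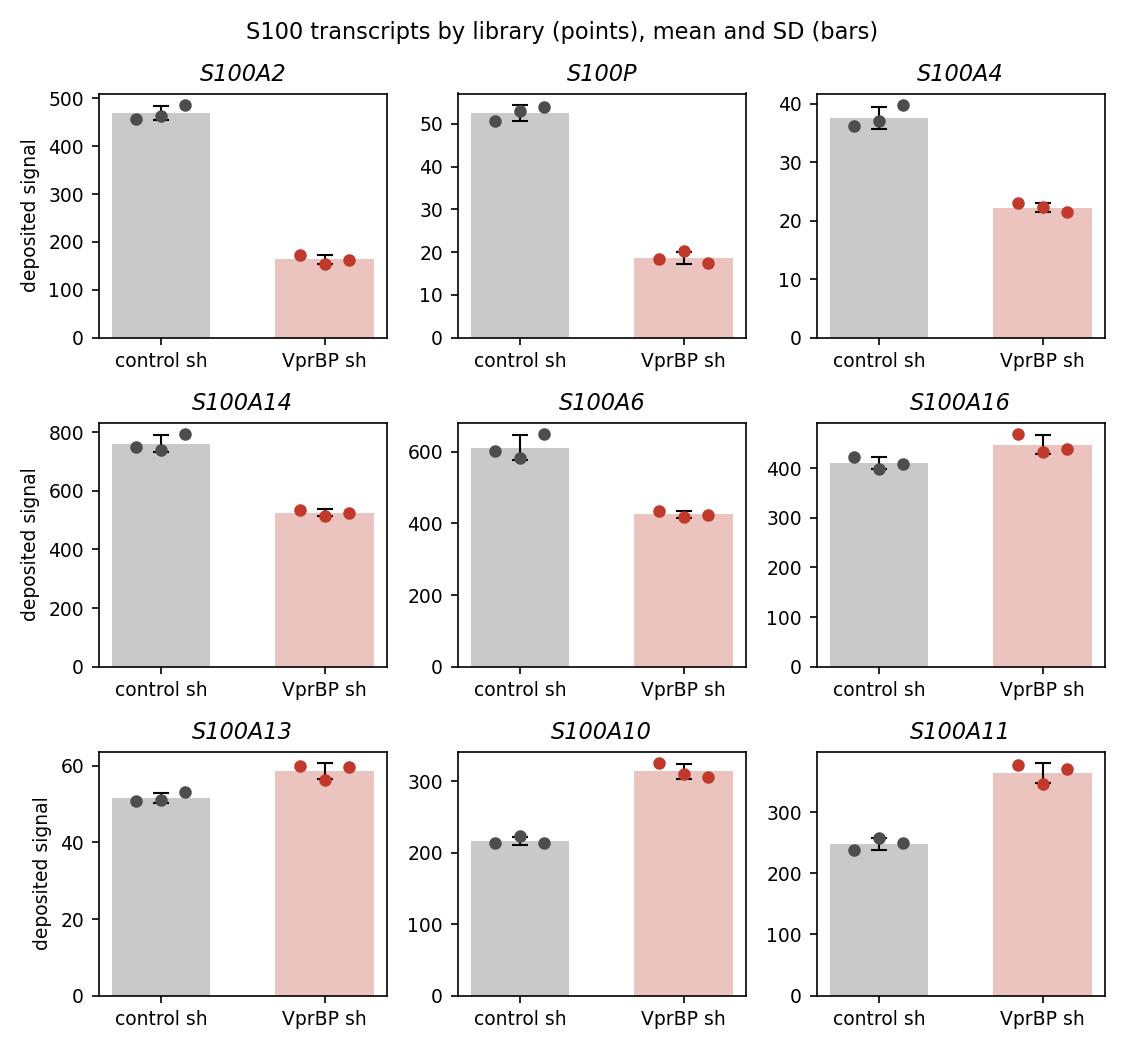
Deposited signal (y axis, from 0 in each panel) of the 9 S100 genes in the 3 control and 3 VprBP shRNA libraries (points), with the group mean (bar) and SD (error bar). In every panel the 2 groups do not overlap. S100A2 drops from 469 to 163 and S100P from 52.6 to 18.7, while the groups of S100A16 lie closest for their level.

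Per length of transcript, the S100 genes were abundant in PC3 cells. Signal was divided by the mean length of the principal transcripts in GENCODE 29 and given per kilobase. On this scale they ranked, in control cells, from the 83.0th percentile (S100P) to the 99.7th (S100A6) of 11180 listed protein-coding genes. In control cells S100A6 was highest, at 912 ± 50.6 per kilobase (SD, n = 3). S100A2 at 705 ± 22.5 and S100A14 at 695 ± 26.2 followed, and these overlapped between libraries. S100A11 at 418 ± 16.5 and S100A16 at 394 ± 11.2 overlapped as well. Below them came S100A10 at 239 ± 6.10, S100A13 at 88.8 ± 2.23, S100A4 at 66.4 ± 3.36 and S100P at 41.1 ± 1.41, each apart from its neighbours.

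In knockdown cells S100A6 at 635 ± 13.8 per kilobase and S100A11 at 612 ± 27.4 overlapped at the top (SD, n = 3 each). S100A14 at 479 ± 10.7, S100A16 at 430 ± 18.0 and S100A10 at 346 ± 11.2 followed, each apart from its neighbours. S100A2 at 246 ± 14.2 then lay below S100A10, which it had exceeded in control cells. S100A13, S100A4 and S100P stayed lowest, at 101 ± 3.47, 39.2 ± 1.34 and 14.6 ± 1.10. The order depends on the length used. With the length of all annotated exons, S100A2 fell from 299 ± 9.55 to 104 ± 6.01 per kilobase, and S100A13 was the lowest member in control cells at 23.3 ± 0.586 (SD, n = 3 each).

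**Figure D3:**
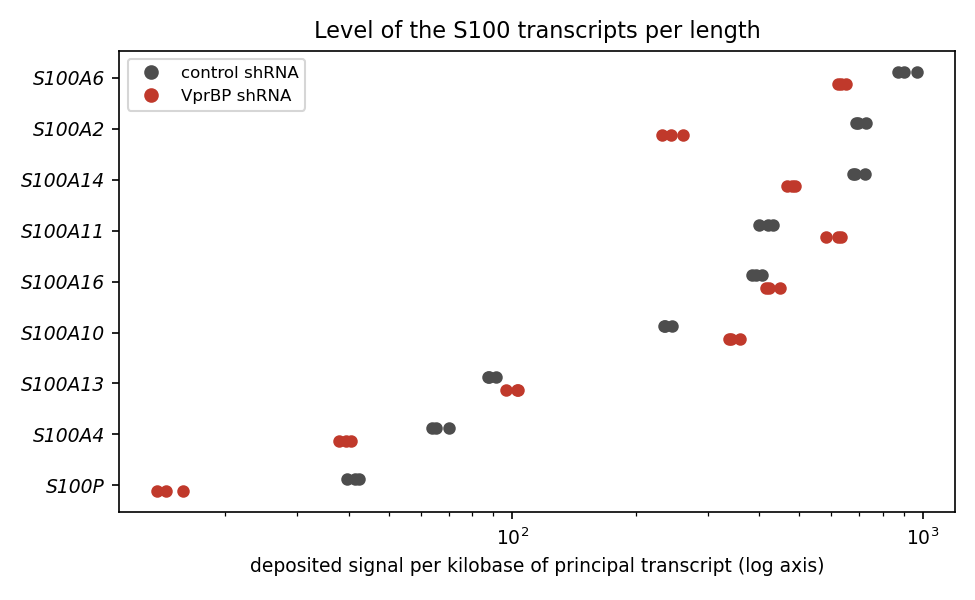
Deposited signal per kilobase of principal transcript (x axis, log scale) for each S100 gene in the 3 control (grey) and 3 VprBP shRNA (red) libraries, ordered by the control mean. S100A2 moves from 705 to 246 and passes below S100A10, which moves from 239 to 346.

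Summed over the 9 genes, the signal was 2821, 2806 and 2949 in control libraries and 2417, 2273 and 2326 in knockdown libraries. The sum was lower in all 3 knockdown libraries, with means of 2859 ± 78.2 and 2339 ± 73.0 (SD, n = 3 each), a log2 difference of -0.29. It is dominated by the members of highest signal and is not a fall of every member, since 4 of the 9 rose. The two-sided exact permutation test gave p = 0.1, the smallest p that 3 libraries against 3 can give. The 9 genes took 0.288% ± 0.00789 of all listed signal in control and 0.232% ± 0.00701 in knockdown cells (SD, n = 3 each).

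Along chromosome 1 the direction changed between neighbours. S100A10 and S100A11, 38646 bases apart, both rose. The other 6 members on this chromosome lie 1486691 bases further on, within 96762 bases. In their order, S100A6, S100A4 and S100A2 fell, S100A16 rose, S100A14 fell and S100A13 rose. The log2 fold change stepped from -1.52 at S100A2 to 0.12 at S100A16, across 38995 bases. Of 3 other listed genes inside the span, S100A9 fell, S100A8 rose and an unnamed long non-coding RNA gene was not called. Of 9 other listed genes within 250 kb outside the outermost members, 4 were higher, 2 lower and 3 not called. Around S100P on chromosome 4, 1 of 8 listed genes within 250 kb was higher, 4 were lower and 3 were not called. Its nearest listed neighbours were not called: MRFAP1L2 had a log2 fold change of -0.14 (limma adjusted p = 0.0516) and MRFAP1L1 one of 0.00 (limma adjusted p = 0.964).

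**Figure D4:**
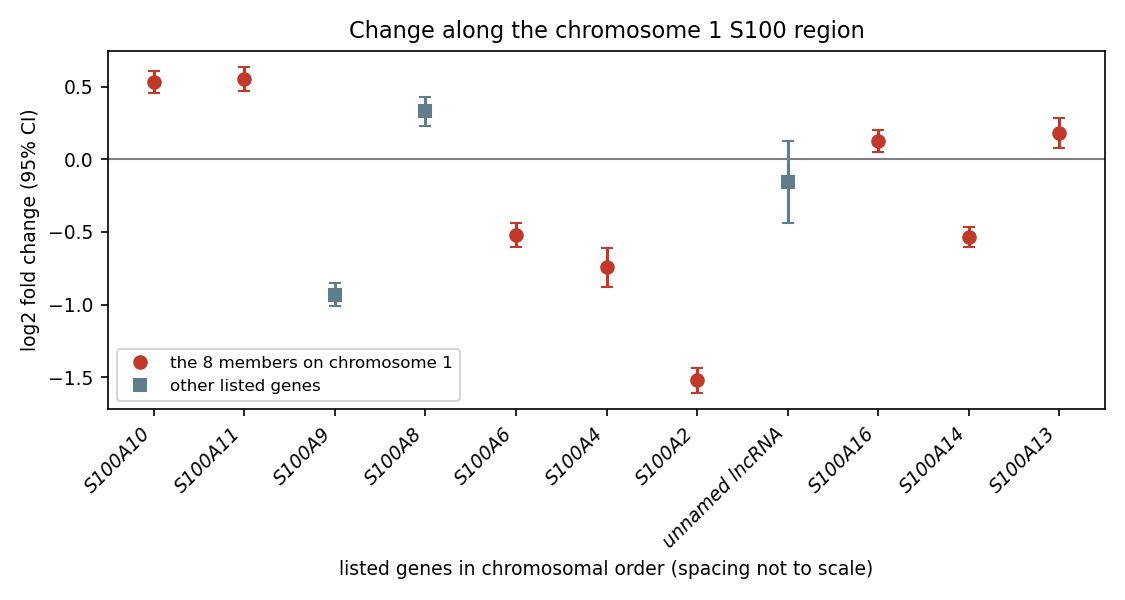
Log2 fold change (y axis, points, with 95% limma confidence intervals as bars) of the listed genes in chromosomal order from S100A10 to S100A13 (x axis, spacing not to scale), with the 8 members on chromosome 1 as red circles and other listed genes as blue squares. The sign changes more than once along the row, from 0.53 at S100A10 to -1.52 at S100A2 and 0.18 at S100A13.

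Of 11 further S100 genes looked up, S100A8 and S100A9 were listed, and they lie in the gap between S100A11 and S100A6. Their proteins join as calprotectin, a neutrophil and epithelial alarm protein. S100A9 fell, from values of 886, 922 and 925 to 494, 449 and 490, with a log2 fold change of -0.93 (SE 0.04, limma adjusted p = 3.18e-12). S100A8 rose, from 76.9, 78.97 and 80.2 to 105, 92.6 and 100.3, with a log2 fold change of 0.33 (SE 0.05, limma adjusted p = 1.82e-05). Neither pair of groups overlapped. Both genes have TATAA 29 bases before the RefSeq start nearest to the deposited gene end. S100A8 has 3 RefSeq starts, and the others lack TATAA at 16 to 40 bases before them. Among 8 leukocyte markers only CD68 was listed, at 26.3 ± 0.603 and 26.4 ± 0.720 (SD, n = 3 each, limma adjusted p = 0.938). The other 7 leukocyte markers were not analysed here. The libraries came from the PC3 line rather than from a tissue, and any part of leukocytes in S100A8 and S100A9 was not tested.

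Annexins are membrane-binding partners of S100 dimers. Of 13 annexin genes 9 were listed: 5 rose, 1 fell and 3 passed no threshold, where 33% of all genes were called higher and 27.8% lower. Their median on the log2 scale was 0.12, against 0.02 over all genes. ANXA2, the partner of S100A10, had 536, 547 and 525 in control and 745, 731 and 758 in knockdown libraries. It rose by 0.47 on the log2 scale (SE 0.03, limma adjusted p = 1.35e-09), with a 95% interval that overlapped that of S100A10. The ratio of S100A10 to ANXA2 signal was 0.405 ± 0.00522 in control and 0.422 ± 0.0167 in knockdown libraries (SD, n = 3 each). The ratios overlapped between groups, and the two-sided exact permutation test gave p = 0.3. ANXA3 rose 2.19-fold and ANXA8 3.24-fold, the latter from a control mean of 2.69, and ANXA11 fell, with a log2 fold change of -0.32 (SE 0.03, limma adjusted p = 4.57e-07). ANXA8 shares most of its sequence with ANXA8L1, so its reads are uncertain.

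Of 20 other partners inside the cell, 18 were listed, 9 of them higher, 5 lower and 4 without a call, beside the same 33% and 27.8% over all genes. Their median was 0.10 on the log2 scale. AHNAK, a giant scaffold held at the membrane by S100A10 and annexin A2, fell from 1424 ± 14.3 to 1021 ± 40.4 (SD, n = 3 each), with a log2 fold change of -0.48 (SE 0.03, limma adjusted p = 2.27e-09). CTSD, the gene of the lysosomal protease cathepsin D, fell 1.51-fold. MYH14, a non-muscle myosin heavy chain gene, fell 1.28-fold. The co-chaperone gene SUGT1, a partner of S100A6, rose 1.35-fold. The scaffold gene IQGAP1, a partner of S100P, rose 1.25-fold. DLC1, whose product is bound by S100A10, rose 1.32-fold from a control mean of 4.46.

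Of 11 genes for S100 receptors at the cell surface, 7 were listed, 4 of them higher, 1 lower and 2 without a call, against those shares of 33% and 27.8%. The receptor genes AGER, which encodes RAGE, and TLR4 were not analysed here. MCAM, an adhesion molecule that binds S100A8 and S100A9, rose, with a log2 fold change of 0.37 (limma adjusted p = 2.96e-07). ALCAM, another adhesion molecule, rose 1.21-fold. The syndecan genes SDC4 and SDC1 differed little, with log2 fold changes of 0.10 (limma adjusted p = 0.0243) and -0.15 (limma adjusted p = 0.00120). BSG, the gene of basigin, a receptor of S100A9, was called higher although its groups overlapped, at 439 ± 21.1 and 469 ± 17.5 (SD, n = 3 each, limma adjusted p = 0.0448).

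In plasminogen activation, the process that S100A10 promotes at the cell surface, 7 of 8 genes were listed, 6 of them higher and 1 lower, where 33% and 27.8% of all genes were. Their median was 0.50 on the log2 scale. The inhibitor gene SERPINB2 rose 5.42-fold from a control mean of 1.98. PLAUR, the urokinase receptor gene, rose 1.83-fold. PLAT, the gene of tissue plasminogen activator, fell from 157 ± 2.50 to 78.7 ± 3.35 (SD, n = 3 each), with a log2 fold change of -0.99 (SE 0.04, limma adjusted p = 5.87e-12).

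**Figure D5:**
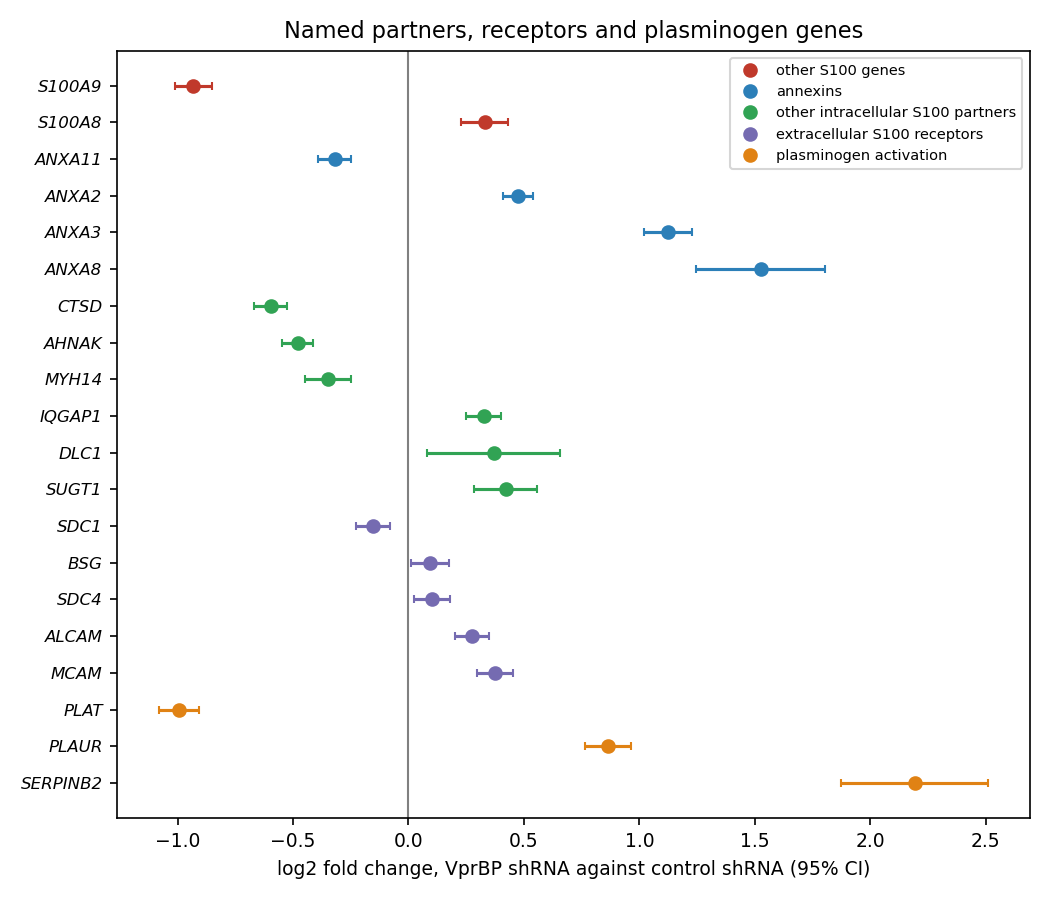
Log2 fold change (x axis, points, with 95% limma confidence intervals as bars) of named genes that encode other S100 proteins, annexins, partners, receptors and plasminogen factors (y axis, coloured by list). ANXA2 lies at 0.47 and AHNAK at -0.48, S100A8 and S100A9 lie on opposite sides of 0, and SERPINB2 lies above 2.

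Of 47 genes of EF-hand proteins outside the S100 family 38 were listed: 14 rose, 9 fell and 15 passed no threshold, close to the 33% higher and 27.8% lower over all genes. Their median was 0.08 on the log2 scale. CALB2, which encodes the calcium buffer calretinin, fell 3.01-fold from a control mean of 17.7. CIB2 and the neuronal calcium sensor gene NCS1 fell 1.82-fold and 1.32-fold. The centrin gene CETN2 rose 1.71-fold, and NUCB2 and CALU, genes of calcium-binding proteins of the secretory pathway, rose 1.46-fold and 1.33-fold. None of the 7 fused-type S100 genes, such as FLG, was analysed here.

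The genes most like the members at each end were found by the root mean square distance of the 6 log2 values, after the control mean of each gene was subtracted. For S100A2 these were PXYLP1, FAM131B-AS2 and PALM, at distances of 0.05, 0.05 and 0.07. For S100A11 they were ZNF22, EGLN1 and B4GALT4, at 0.02, 0.02 and 0.03. With 2 groups of 3 libraries, this likeness rests mostly on a similar difference between the groups.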

How the data were processed

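RNA of 6 PC3 samples was sequenced. Per the submitters' processing notes, Partek and genome build hg38 were used. The sources used here name no aligner, annotation, strand setting or scaling method. The authors deposited a signal per gene that is named raw counts but is not whole: its 75th percentile lay between 78.99 and 79.02 in every library, and 55.3% to 64.8% of values were whole multiples of 1 step per library, within 0.02 reads. Values divided by this step gave the estimated reads. Gene ends are given with 1 subtracted, which matched GENCODE 29 for 6958 of 12012 genes, against 153 without.

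The main test was limma's (version 3.58.1, under R 4.3.3), fitted to log2(value + 0.5) of all 12227 genes. The prior variance followed the mean, and p-values were adjusted by Benjamini-Hochberg over all genes. Folds are ratios of group means, and log2 fold changes understate changes of low genes. On simulated data of this comparison, with 12227 genes, 93% of 200 genes changed 1.3-fold and 100% of 200 changed 2-fold were recovered. False calls numbered 14 and 7. The simulation gave every gene the same added noise and left all other genes unchanged. In the real data 60.9% of genes were called, so these rates may not carry over. No count model was used. Single values were tested with exact permutation tests. The members and lists were chosen with earlier results of these data known. Named genes are the members, the listed S100 genes, up to 3 called genes in each direction per list with a mean of at least 1, ANXA2, AHNAK, BSG, DCAF1, the nearest neighbours and the 3 most similar genes. Markers of cell types are given as whole lists, apart from the prostate markers, and some genes that the rule or the lists hold are not reported here. The promoter motifs and the sequence stretches were chosen outside this rule, after values were seen. No libraries of a group were alike within counting noise, and each was kept as 1 replicate. Alternatives were other scalings, pseudocounts of 0.1 and 2, a mean of at least 5, no trend, limma-voom, a replicate block, each library left out and a fold of 1.5.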

Additional observations from a re-analysis of the deposited data

How the results depend on the processing

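Every direction of the 9 S100 genes held under the 15 alternatives, and 126 of 135 values stayed on their side of the threshold. Several alternatives could not change a direction. No trend, the replicate block, a mean of at least 5 and a fold of 1.5 left the log2 fold changes as they were. Leaving out a library cannot reverse a gene whose groups do not overlap. In the test against a fold of 1.5, 651 of 12227 genes were called, with 0 S100 members higher and 2 lower (limma, at no fold minimum 4 and 5). S100A16 also lost its call without knockdown replicate 1 and without the trend. Counts of called genes lay between 6697 and 7405 when each library was left out. Same-numbered deviations correlated at 0.026, -0.178 and -0.168, and differently numbered ones at -0.102 to 0.217. These few values gave no sign that the replicate numbers pair the samples, and they cannot exclude it. With the replicate block, 7042 genes were called, and 4 members were higher and 5 lower. The scalings moved the median log2 fold change by -0.03 and -0.02. Genes of lower depth than those listed were not analysed here.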

Other observations

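Ratios within a library do not depend on its scaling, and a pair of them, chosen after values were seen, moved far between groups. The ratio of S100A8 to S100A9 signal was 0.0868, 0.0857 and 0.0867 in the control libraries and 0.212, 0.206 and 0.204 in the knockdown libraries. The ratio of AHNAK to ANXA2, genes for a scaffold and the annexin that holds it at the membrane, was 2.65, 2.58 and 2.74 in the control libraries and 1.31, 1.44 and 1.37 in the knockdown libraries. Neither ratio overlapped between groups (two-sided exact permutation p = 0.1 for each, the smallest that 3 libraries against 3 can give). The ratio of S100A10 to S100A11, by contrast, was 0.875 ± 0.0221 and 0.864 ± 0.0343 (SD, n = 3 each), with an exact permutation p of 0.7.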
